A study of Mus musculus with 8 samples.

Results

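A set of 8 abundant mRNAs that do not encode ribosomal proteins but are known as terminal oligopyrimidine (TOP) mRNAs were followed through input RNA and ribosome footprints of B16 mouse melanoma cells. They were taken by gene symbol from the deposited table: Eef1a1, Eef1b2, Eef1d, Eef1g, Eef2, Pabpc1, Tpt1 and Npm1, and all 8 of 8 were found among 10453 genes. The cells were labelled WT or Mettl5 KO. The KO cells had been edited at Mettl5 with CRISPR/Cas9, METTL5 being the methyltransferase of an m6A in 18S rRNA, and the labels do not say whether they were 1 clone or a pool. Both genotypes were grown in the same medium with serum, and both were treated with cycloheximide, which halts elongating ribosomes, before lysis. Each of the 4 groups (WT input, KO input, WT footprints, KO footprints) had 2 libraries. The labels do not say that these were separate cultures, so each p-value reflects a spread between libraries that may be technical repeats. For the limma p-values below, that spread is not the gene's own alone, since limma draws it in large part from all genes of a similar level.

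A TOP mRNA begins at its cap with a cytosine that is followed by a run of pyrimidines. In growing mammalian cells the kinase mTOR keeps such mRNAs on ribosomes, and when mTOR is inhibited the RNA-binding protein LARP1 binds the capped tract and holds the mRNAs back from translation. Besides the ribosomal proteins, the class includes the factors that drive elongation: eEF1A, which brings aminoacyl-tRNA to the ribosome, the eEF1B subunits, which recharge eEF1A with GTP, and eEF2, which moves the ribosome along the mRNA.

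Of the 8 genes, 4 (Eef1a1, Eef1b2, Eef2 and Tpt1) matched an annotated start in the RefSeq promoter table (GRCm38.p6), and 30 bases with the longest pyrimidine run near each start are shown because such a tract at the cap defines the class. The annotated start itself lies within the printed bases for Eef1a1 and upstream of them for Eef1b2, Eef2 and Tpt1. Capitals mark the longest run made of C followed by at least 4 pyrimidines (C or T), read on the gene's own strand from 20 bases before to 50 bases after the annotated start.
Eef1a1: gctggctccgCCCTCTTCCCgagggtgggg
Eef1b2: tgcgtccgagcgCTTTCgttcaactccggc
Eef2: cgtcagcggtCTCTTCCgccgcagccgccg
Tpt1: cggtgacgtagccgagcgtgCCCTCTatat
The windows are chr9:78481710-78481739 on the minus strand for Eef1a1, chr1:63176851-63176880 on the plus strand for Eef1b2, chr10:81176636-81176665 on the plus strand for Eef2 and chr14:75845276-75845305 on the plus strand for Tpt1. The run of Eef1a1 spans the annotated start, from base -5 to base 5. Those of Eef2, Eef1b2 and Tpt1 begin at bases 16, 33 and 41 after it. Annotated starts were not measured in these cells. A run of this kind was present in the same window of 63.6% of all 32851 promoters, and began within 5 bases of the annotated start in 14.7% of them (1 of the 4 genes shown). Eef1d, Eef1g, Pabpc1 and Npm1 are named only.

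The deposited values are read counts divided by 1 factor per library (normalized reads), and whole reads could be recovered from them. All levels are therefore relative to the other RNA in a library. The labels name the input both as poly(A) RNA and as RNA depleted of rRNA. Input libraries held 11927567 to 18823632 recovered reads and footprint libraries 2279456 to 3098930. Replicates differed by slightly more than counting error (chi-square per degree of freedom 1.1 to 1.21). Mettl5 itself had 114 and 110.6 normalized reads in WT input and 75.7 and 95.7 in KO input, with both KO libraries lower. A read count over the whole gene does not check the edit. Its footprints were 91.1 and 113 in WT and 109 and 112 in KO, and these overlapped. All 7 melanocyte markers listed (Pmel, Tyr, Tyrp1, Dct, Mlana, Mitf, Sox10) were well covered, with mean WT input between 1347 (Tyr) and 27280.2 (Tyrp1) normalized reads. Of 12 markers of other cell types, 4 were in the table (Cd68, Col1a1, Col1a2, Pdgfrb), at 5.05 to 74.8 normalized reads in WT input and 4.66 to 91.1 in KO input. Of these, Pdgfrb was called higher in KO input (log2 fold change 0.28, adjusted p = 0.0288, limma) and in KO footprints (0.57, adjusted p = 0.0379, limma), and the other 3 did not pass. The melanocyte markers also moved with genotype, with 6 of 7 higher and 1 lower in input, 6 higher and 0 lower in footprints, and 5 higher and 1 lower in translational efficiency of KO cells (median log2 fold changes 0.20, 0.26 and 0.20), and the part of either marker list in the results below was not tested.

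In short, 6 of the 8 mRNAs were slightly higher and 1 (Npm1) slightly lower in the input of KO cells, 7 of 8 were higher in footprints, and for 6 of 8 footprints rose relative to input. Of all genes, 17.9% were called higher and 18.6% lower in input, 6.3% higher in footprints and 5.11% higher in footprints relative to input. Such calls were more frequent among genes with many footprints, as given below. Together the 8 genes took 2.12% and 2.11% of all recovered reads in WT input and 2.26% and 2.3% in KO input. In footprints they took 0.831% and 0.835% of reads in WT and 1.06% in each KO library. The share of footprints was thus 1.27-fold higher in KO than in WT, and that of input 1.08-fold higher, with no overlap between genotypes in either kind of library. These shares are dominated by Eef1a1 and Eef2.

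**Figure D1:**
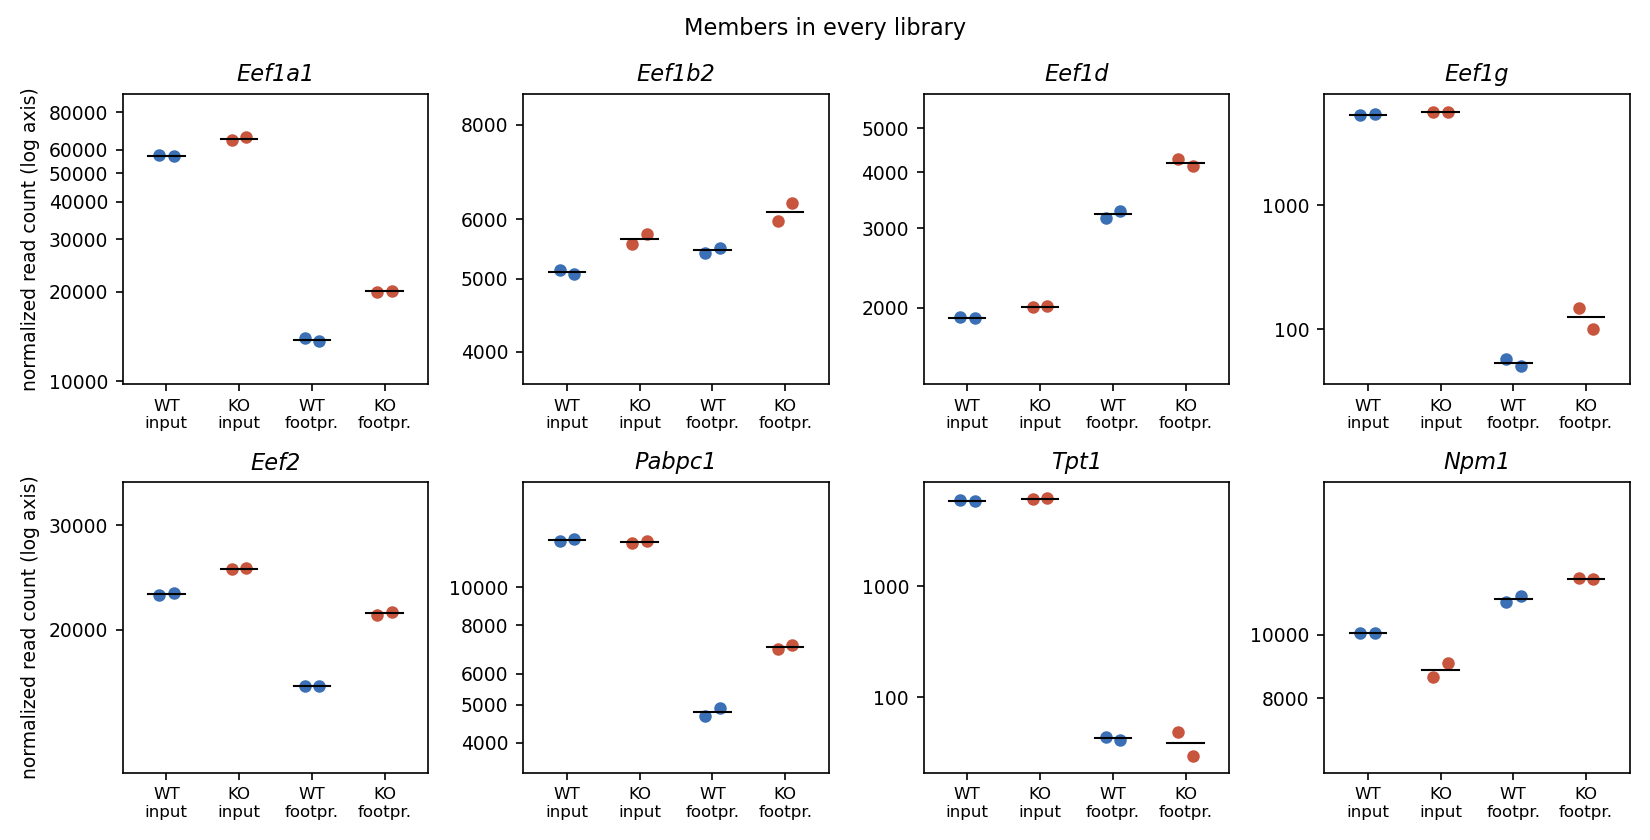
Normalized read count of each of the 8 genes in every library (log axis, range set per gene). Points are libraries, blue for WT and red for KO, and bars are the means of 2 libraries. Footprints of Eef1a1, Eef2, Pabpc1 and Eef1d are higher in both KO libraries, and those of Eef1g and Tpt1 lie between 29.5 and 149 while their input lies between 5305 and 6131.

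The genes are spread over the genome (GRCm38.p6 in RefSeq). Eef1a1 (ENSMUSG00000037742.14) lies at chr9:78478453-78481724 and Eef2 (ENSMUSG00000034994.10) at chr10:81176631-81182509. The eEF1B genes lie at chr1:63176831-63180486 (Eef1b2, ENSMUSG00000025967.16), chr15:75894796-75909784 (Eef1d, ENSMUSG00000055762.15) and chr19:8967041-8978180 (Eef1g, ENSMUSG00000071644.10). Pabpc1 (ENSMUSG00000022283.14) lies at chr15:36595658-36609581, Tpt1 (ENSMUSG00000060126.14) at chr14:75845256-75848303 and Npm1 (ENSMUSG00000057113.13) at chr11:33152498-33164142.

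How many footprints an mRNA carries for its input differed widely among the 8 genes in WT cells, before any comparison of genotypes. The ratio of mean footprints to mean input is given here relative to the median of 10443 genes, on the log2 scale, and is a description with no test. Input reads can fall on the whole transcript and footprints mostly on the coding part, and no correction was made for the share of a transcript that is coding. Eef1d, a nucleotide exchange subunit of eEF1B, was highest (0.76, between 0.73 and 0.80 over the 4 pairings of libraries). Npm1 (0.17) and Eef1b2 (0.093) followed and lay close to the median gene, with pairings of 0.16 to 0.20 and 0.081 to 0.12. Eef2 stood at -0.52, Pabpc1 at -1.46 and Eef1a1 at -2.05, that is, Eef1a1 had 4.14-fold fewer footprints for its input than the median gene. None of these 6 genes overlapped its neighbour over the pairings in WT.

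Eef1g, the structural subunit of the eEF1B complex, had 13295 and 11096 input reads in the WT libraries but 27 and 22 footprint reads, which gives a ratio of -6.63. Tpt1, which encodes the abundant translationally controlled tumor protein, had 14685 and 12122 input reads but 21 and 18 footprint reads (ratio -7.09). Counted from the lowest of 10443 genes, Eef1g was at rank 36 and Tpt1 at rank 30. RefSeq names 7 pseudogenes of Tpt1, 2 of Eef1a1 and 1 of Eef2, and none under the symbol of the other 5 genes. Only pseudogenes that carry the symbol of their gene were counted, so copies listed under other names are missed. Among genes with at least 1000 normalized reads in WT input, the median ratio was -2.99 for the 114 genes with a pseudogene named after them and -0.025 for the 1117 without. Ratios below -5 made up 25.4% of the former and 2.06% of the latter. Neither set was cleared of ribosomal proteins, whose median ratio was -3.54, and Eef1a1, Eef2 and Tpt1 were themselves among the 114. The part of these genes in the contrast was not tested. The sources used here do not say how reads with several matches were counted. Reads that a gene shares with near-identical copies could have been split or lost. Levels of Eef1a1, Eef2, Tpt1 and the ribosomal proteins are uncertain for this reason, and those of the other 5 genes may be. Whether this set the low footprints of Tpt1 and Eef1g was not tested.

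**Figure D2:**
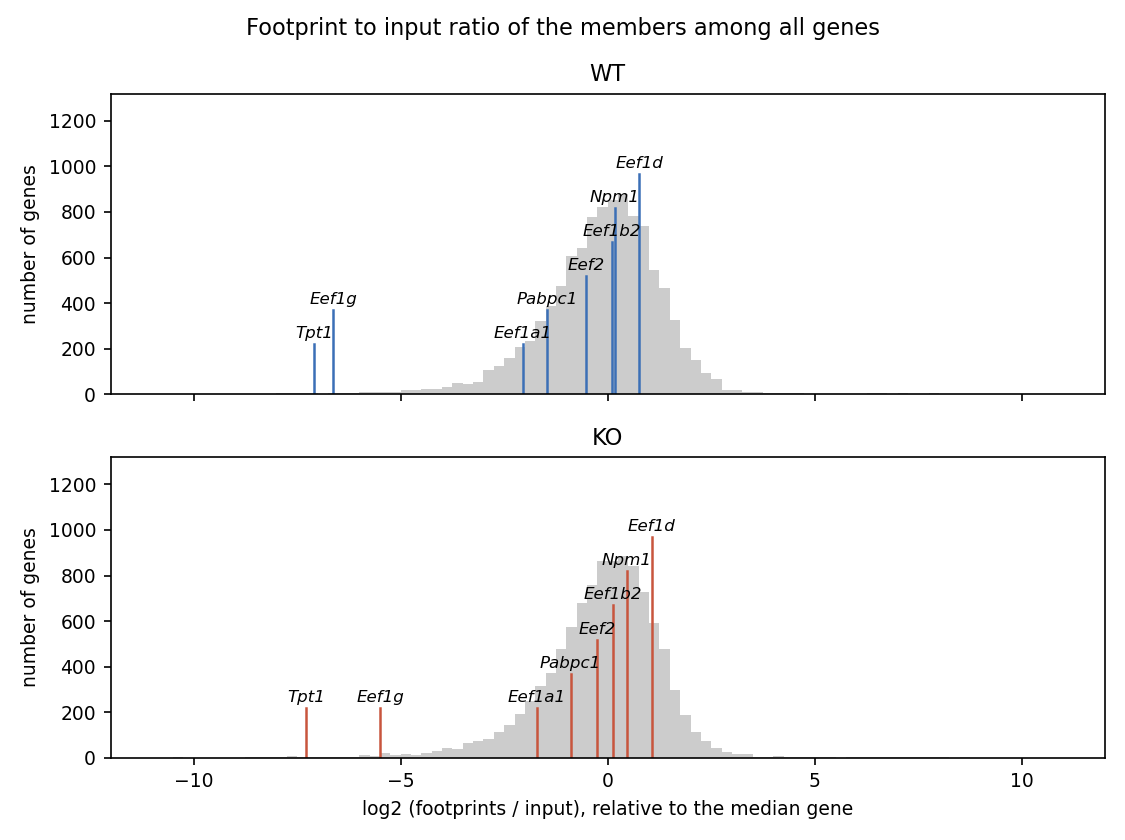
Log2 ratio of footprints to input relative to the median gene (x axis) for 10443 genes (grey histogram, number of genes on the y axis), WT above and KO below, with a vertical line at each of the 8 genes; line heights carry no value. Tpt1 and Eef1g lie far to the left at -7.09 and -6.63 in WT, and the other 6 genes lie between -2.05 and 0.76.

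The comparison of input RNA asks whether the mRNA levels themselves differ between genotypes. Of the 8 genes, 6 rose and 1 fell, against 17.9% of all 10443 genes tested that were called higher and 18.6% called lower (limma, Benjamini-Hochberg adjusted p under 0.05; 36.4% in either direction). Both KO libraries were above both WT libraries for 6 of the 8 and below them for 1, against 33.4% and 33.0% of all genes. Among 364 genes with many footprints, described with the footprint results, 42.3% were called higher and 31.3% lower in input, and 4 of the 6 of these genes that it includes were higher and 1 lower. The 8 changes were small, between -0.19 and 0.19 on the log2 scale, with a median of 0.077 against 0.0022 for all genes. Below, a fold change is on the scale of log2(normalized reads + 1) and its error is a standard error (SE).

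Eef1a1 had 57366 and 56878 normalized reads in WT input and 64503 and 66066 in KO input. Both KO libraries were above both WT libraries, a rise of 1.14-fold (log2 fold change 0.19 ± 0.0092, adjusted p = 7.03e-20, limma). Eef2 had 22918 and 23107 in WT and 25359 and 25377 in KO. It rose 1.1-fold with no overlap (0.14 ± 0.011, adjusted p = 4.8e-14, limma).

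The eEF1B subunits rose as well. Eef1b2, a nucleotide exchange subunit, had 5127 and 5067 normalized reads in WT input and 5553 and 5729.98 in KO, with a log2 fold change of 0.15 ± 0.017 (adjusted p = 5.37e-09, limma). Eef1d had 1909 and 1895 in WT and 2008 and 2014 in KO (0.080 ± 0.023, adjusted p = 0.00528, limma). Eef1g had 5305 and 5358 in WT and 5639 and 5586 in KO (0.074 ± 0.016, adjusted p = 0.000343, limma). For all of these subunits both KO libraries were higher, and the differences were between 1.05-fold and 1.11-fold.

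Pabpc1 encodes the main cytoplasmic poly(A)-binding protein, which coats the mRNA tail and bridges it to the cap complex. Its input was 13082 and 13252 normalized reads in WT and 12978 and 13103 in KO, and the genotypes overlapped (difference -0.014 on the log2 scale, 95% confidence interval -0.039 to 0.012, adjusted p = 0.422, limma). Tpt1 input was 5859.7 and 5853 in WT and 6031 and 6131 in KO, a rise of 1.04-fold (0.054 ± 0.016, adjusted p = 0.00635, limma). Npm1, the nucleolar chaperone nucleophosmin that acts in ribosome assembly, was the exception. Its input was 10073 and 10039 normalized reads in WT and 8635 and 9049 in KO. Both KO libraries were below both WT libraries, and the decrease was 1.14-fold (log2 fold change -0.19 ± 0.016, adjusted p = 1.37e-12, limma).

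The input calls depend on how the spread was estimated. When limma's variance was not modelled on level, 0 of the 8 genes passed (1276 genes over the whole table, against 3803), and with all 8 libraries in the fit, 4 passed (Eef1a1, Eef1b2, Eef2 and Npm1). DESeq2 on the recovered reads left 5, without Eef1d (adjusted p = 0.132) and Tpt1 (adjusted p = 0.118), and Tpt1 was also lost without WT input replicate 2 (adjusted p = 0.0572, limma).

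Footprints measure how many ribosomes sat on an mRNA. Here 7 of 8 genes rose and 0 fell, against 6.3% of all 10453 genes called higher and 6.22% called lower (12.5% in either direction). Both KO libraries were higher for 7 of 8 genes and lower for 0, against 27.0% and 25.6% of all genes. The median log2 fold change of the 8 genes was 0.39, against 0.0047 for all genes. Genes with many footprints pass more easily, so a second background was taken after the values had been seen. Among the 364 genes with a mean of at least 3000 normalized footprint reads, which include 6 of the 8, 37.4% were called higher and 21.7% lower, with a median log2 fold change of 0.05. All 6 were called higher there, with a median of 0.39.

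Eef1a1 footprints were 13952 and 13693 normalized reads in WT and 19974 and 20104 in KO. The KO libraries were far above those of WT, 1.45-fold (log2 fold change 0.54 ± 0.020, adjusted p = 2.36e-16, limma), from 12539 reads over both WT libraries and 13798 over both KO libraries. Eef2 footprints were 16065 and 16045 in WT and 21159 and 21463 in KO. They rose 1.33-fold, with no overlap (0.41 ± 0.019, adjusted p = 2.8e-14, limma).

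Pabpc1 footprints were 4699 and 4911 normalized reads in WT and 6933 and 7119 in KO. This rise of 1.46-fold (log2 fold change 0.55 ± 0.033, adjusted p = 4.59e-12, limma) was found with input that overlapped between genotypes. By size it was at rank 580 from the highest of 10453 genes.

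Among the eEF1B subunits, Eef1d footprints were 3162 and 3281 normalized reads in WT and 4268 and 4121 in KO. They rose 1.3-fold (log2 fold change 0.38 ± 0.040, adjusted p = 1.07e-07, limma). Eef1b2 footprints were 5411 and 5488 in WT and 5959 and 6292 in KO. They rose 1.12-fold (0.17 ± 0.033, adjusted p = 0.000956, limma), close in size to its change in input. Eef1g footprints were 57.2 and 50.6 in WT and 149 and 100.4 in KO. This was the largest fold among the 8 genes, 2.25-fold (1.17 ± 0.27, adjusted p = 0.00451, limma), but it rests on 27 and 22 reads against 52 and 34. The exact Poisson intervals (95%, counting error only) of WT replicate 1 (17.8 to 39.3 reads) and KO replicate 2 (23.6 to 47.5 reads) overlap. Without KO footprint replicate 1, the Eef1g value was 0.89 and did not pass (adjusted p = 0.0589, limma).

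Npm1 footprints were 11209.6 and 11456 normalized reads in WT and 12181 and 12140.3 in KO. They were higher in both KO libraries, by 1.07-fold (log2 fold change 0.10 ± 0.023, adjusted p = 0.00396, limma), opposite to the direction of its input. The call was lost without WT footprint replicate 1 (adjusted p = 0.129, limma) and with DESeq2 (adjusted p = 0.0765). Tpt1 footprints were 44.5 and 41.4 in WT and 48.6 and 29.5 in KO, from 39 reads over both WT libraries and 27 over both KO libraries. The genotypes overlapped (log2 fold change -0.17, 95% confidence interval -0.93 to 0.58, adjusted p = 0.83, limma). This interval includes the values of Eef1a1, Eef1b2, Eef1d, Eef2, Pabpc1 and Npm1, and its upper bound lies below the value of Eef1g. Without limma's trend of variance, 0 of 8 genes and 0 of all genes passed in footprints, while 1807 genes had an unadjusted p under 0.05. DESeq2 called 5 of the 8 genes, since Npm1 did not pass and Eef1g was given no adjusted p, while edgeR called 7. Over all genes DESeq2 called 460 and edgeR 1473 where limma called 1309.

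**Figure D3:**
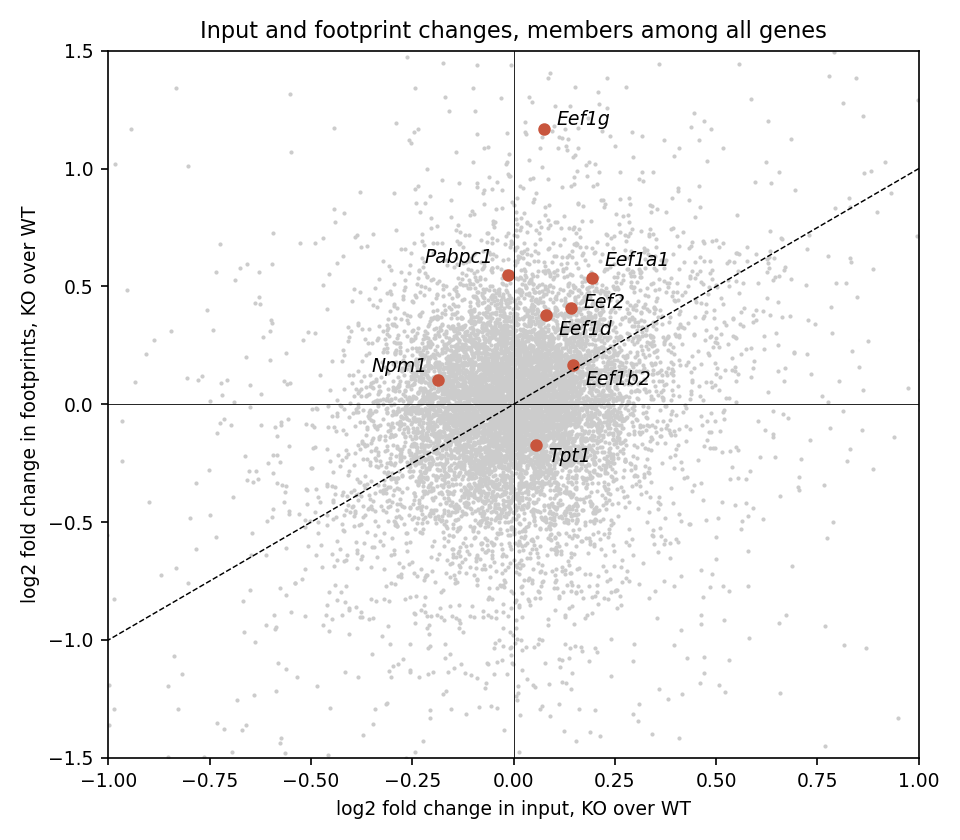
Log2 fold change of KO over WT in input (x axis) and in footprints (y axis). Each grey point is a gene, red points are the 8 genes, and the dashed line marks equal change in both (132 of 10443 genes lie outside the axes). Eef1b2 lies on the line, Tpt1 below it and the other 6 genes above it.

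Translational efficiency is the change in footprints beyond that in input, tested as an interaction term in 1 fit of the 8 libraries. It rose for 6 of the 8 genes and fell for 0, against 5.11% of 10443 genes called higher and 4.66% called lower (9.78% in either direction). The median of the 8 genes was 0.29 and that of all genes 0.005. Among the 364 genes with many footprints, 27.7% were called higher and 18.7% lower, and 5 of the 6 of the 8 genes in that group were called higher.

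Pabpc1 rose most among the well-covered genes, 1.48-fold (log2 fold change 0.56 ± 0.033, adjusted p = 1.13e-05, limma), with nearly all of the change in footprints. Eef1a1 rose 1.27-fold (0.34 ± 0.020, adjusted p = 1.13e-05) and Eef2 1.2-fold (0.27 ± 0.017, adjusted p = 1.82e-05), on top of their higher input. Npm1 rose 1.22-fold (0.29 ± 0.031, adjusted p = 0.00046, limma), which combines lower input with higher footprints.

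The eEF1B subunits did not move by the same amount. Eef1d rose 1.23-fold (log2 fold change 0.30 ± 0.042, adjusted p = 0.00224, limma). Eef1b2, its partner in nucleotide exchange, had a value of 0.022 (95% confidence interval -0.067 to 0.11, adjusted p = 0.783, limma). Eef1g had the largest value, 1.09 ± 0.20 (adjusted p = 0.00826, limma), from the few footprint reads given above. The differences between subunits were not themselves tested. Tpt1 was at -0.23 (95% confidence interval -0.77 to 0.31, adjusted p = 0.613, limma). This fit gives each gene 1 variance for both kinds of library, so errors can be too small. The limit weighs most on Eef1g and Tpt1, whose footprints are few for their input. For Eef1a1, Eef2 and Pabpc1 too, the SE was below that in footprints alone (0.0197 against 0.0203, 0.0169 against 0.0192 and 0.0328 against 0.0331). With a weight for each kind of library, 6 of the 8 genes were again called higher.

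**Figure D4:**
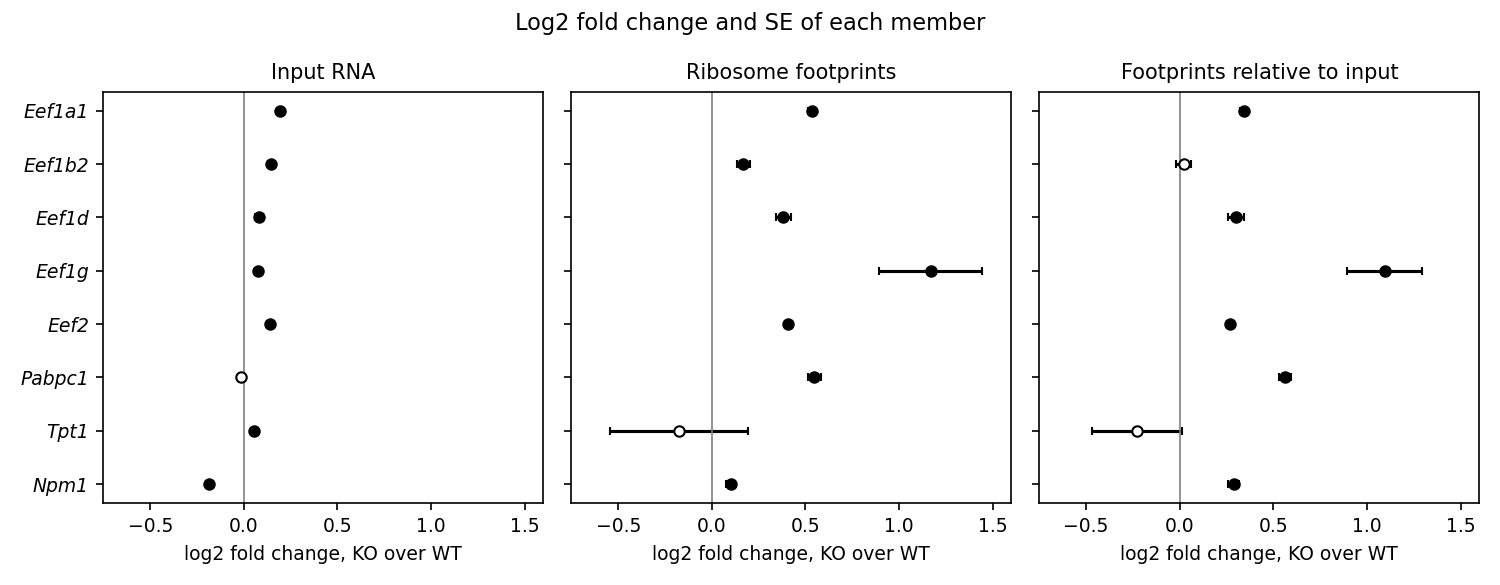
Log2 fold change of KO over WT (x axis) with its SE as horizontal bars, for each of the 8 genes in input RNA, ribosome footprints and footprints relative to input. Filled points passed an adjusted p of 0.05 and open points did not; in the right panel Pabpc1 is at 0.56, Eef1b2 at 0.022 and Tpt1 at -0.23.

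In the KO cells the ratios of footprints to input kept the order of WT for the 6 well-covered genes. Relative to the median gene, Eef1d stood at 1.06, Npm1 at 0.46, Eef1b2 at 0.12, Eef2 at -0.25, Pabpc1 at -0.89 and Eef1a1 at -1.71. The distance of Pabpc1 below the median gene shrank from 2.75-fold in WT to 1.86-fold in KO, and that of Eef1a1 from 4.14-fold to 3.26-fold. Eef1g (-5.5) and Tpt1 (-7.29) remained far below the other genes. The authors' deposited table gives log2 fold changes of translational efficiency of 0.56 for Pabpc1, 0.34 for Eef1a1 and 0.27 for Eef2. In the authors' deposited table the single call among the 8 genes is Eef1g, marked Up (log2 fold change 1.13, adjusted p = 0.000347), against 94 genes marked Up and 183 marked Down of 10453 in that table. The other 7 are not marked in the authors' deposited table, although Pabpc1 has an adjusted p of 7.86e-45 there.

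Without limma's trend, 1 of the 8 genes (Pabpc1, adjusted p = 0.0414) passed in translational efficiency, and 133 genes in all against 1021. Leaving out 1 input library gave 419 to 446 calls over all genes, while the 6 calls among the 8 genes stayed under each library left out.

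Other mRNAs known as TOP mRNAs gave a mixed picture. Of 15 measured, 8 rose and 4 fell in input, 5 rose and 0 fell in footprints, and 3 rose and 0 fell in translational efficiency, with median log2 fold changes of 0.067, 0.12 and 0.042. Of all genes, 17.9% were called higher and 18.6% lower in input. In footprints these shares were 6.3% and 6.22%, and in translational efficiency 5.11% and 4.66%. Neither the counts of this list nor those of the lists below were tested against these shares. Ipo7, which encodes a nuclear import receptor, had lower input (-0.19 ± 0.020, adjusted p = 4.59e-10, limma) and higher footprints, from 3984 ± 59 to 4931 ± 152 normalized reads (SD, n = 2), a change of 0.31 (adjusted p = 9.68e-07, limma). Its translational efficiency rose by 0.49 (adjusted p = 6.14e-05, limma). Eif3h, a subunit of initiation factor eIF3, rose in input (0.13), footprints (0.39) and translational efficiency (0.25, adjusted p = 0.0162, limma). Nap1l1, a histone chaperone, fell in input (-0.12) and rose in translational efficiency (0.35, adjusted p = 0.0276, limma). Eif3k rose in input (0.31) and footprints (0.28) and had a translational efficiency change of -0.027 (adjusted p = 0.81, limma).

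Cytosolic ribosomal proteins are the main TOP class. Of 56 measured, 55 rose in input and 0 fell, with a median log2 fold change of 0.16. In footprints 16 rose and 4 fell, and in translational efficiency 10 rose and 12 fell, with a median of 0.041. They took 1.42% and 1.4% of footprint reads in WT and 1.45% and 1.46% in KO. Their footprints were few for their input as well, with a median ratio of -3.54 relative to the median gene in WT and 20 of 56 below -5. Among the largest changes, Rps10 footprints rose 2.42-fold and Rps7 footprints 2.26-fold, while Rpl6 footprints fell (log2 fold change -1.43), from 494 summed reads to 139. Rpl14 footprints rose by 1.27 (adjusted p = 0.0203, limma) from 28 summed reads to 49. Whether the 8 genes differ from the ribosomal proteins as a group was not tested.

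Of 9 measured other factors of elongation and termination, 3 rose and 4 fell in input, 1 rose and 1 fell in footprints, and 0 rose and 2 fell in translational efficiency. Eef2k, the kinase that inactivates eEF2, rose 1.35-fold in input (log2 fold change 0.44 ± 0.039, adjusted p = 4.67e-12, limma), had footprints of 517 ± 29.7 and 525 ± 28.6 normalized reads (SD, n = 2) in WT and KO, and fell in translational efficiency (-0.41, adjusted p = 0.0208, limma). Eif5a, which carries hypusine and helps peptide bond formation, rose in input (0.12) and fell in translational efficiency (-0.27, adjusted p = 0.00203, limma). Its less abundant paralog Eif5a2 fell in input (-0.54) and in footprints (adjusted p = 0.0388, limma), the latter from 17 summed reads to 3, too few for a fold. Eef1e1, an auxiliary protein of the aminoacyl-tRNA synthetase complex, fell in input (-0.21) and had -0.047 in footprints (adjusted p = 0.833, limma).

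Of 13 measured enzymes that modify elongation factors, 3 rose and 0 fell in input, 0 rose and 1 fell in footprints, and 0 rose and 1 fell in translational efficiency. Of all genes, 17.9% were called higher in input, 6.22% lower in footprints and 4.66% lower in translational efficiency. The counts of this list in those directions lie near these shares. Dhps, which begins hypusine synthesis on eIF5A, rose in input (0.48, adjusted p = 2.89e-11, limma) and fell in translational efficiency (-0.63, adjusted p = 0.00614, limma). Dohh, which completes hypusine, rose in input (0.37), as did Eef1akmt2, a lysine methyltransferase of eEF1A (0.27, adjusted p = 0.0347, limma). Dnajc24, which acts in diphthamide synthesis on eEF2, fell in footprints (-0.48, adjusted p = 0.0345, limma).

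Among 7 measured poly(A)-binding proteins and partners of PABPC1, 0 changed in input. Eif4g1, the scaffold that PABPC1 binds at the cap, rose in footprints from 4912 ± 193 to 6009 ± 256 normalized reads (SD, n = 2), a change of 0.29 (adjusted p = 2.02e-06, limma), and in translational efficiency (0.28, adjusted p = 0.00436, limma). Paip1, a coactivator of PABPC1, rose in footprints (0.24, adjusted p = 0.0128, limma). Paip2, which displaces PABPC1 from poly(A), fell in translational efficiency (-0.50, adjusted p = 0.0467, limma), with values of 0.13 in input and -0.37 in footprints that did not pass.

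Of 19 regulators of TOP mRNA translation, 3 rose and 6 fell in input, 2 rose and 3 fell in footprints, and 3 rose and 1 fell in translational efficiency. The 3 that rose in input lie near the share of all genes called higher there, 17.9%. Eif4ebp1, the mTOR-controlled repressor of the cap-binding protein eIF4E, rose in input (0.70, adjusted p = 3.45e-17, limma). Its footprints fell (-0.35, adjusted p = 0.0403, limma), as did its translational efficiency (-1.05, adjusted p = 0.000101, limma). Larp4, a relative of LARP1 that binds poly(A) and PABPC1, fell in input (-0.24) and rose in footprints (0.47) and translational efficiency (0.71, adjusted p = 0.000215, limma). Rps6kb1, the S6 kinase downstream of mTOR, fell in input (-0.23) and rose in translational efficiency (0.49, adjusted p = 0.00701, limma). Ssb, the La protein, fell in input (-0.27), and rose in footprints (0.15) and in translational efficiency (0.42, adjusted p = 0.0025, limma).

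Among 7 measured relatives and partners of TPT1 and NPM1, 1 rose and 3 fell in input, 2 rose and 1 fell in footprints, and 2 rose and 0 fell in translational efficiency. Nop58, a box C/D snoRNP protein of the nucleolus, had the pattern of Npm1, with lower input (-0.18), higher footprints (0.16) and higher translational efficiency (0.34, adjusted p = 0.00179, limma). Ncl, which encodes nucleolin, fell in input (-0.22) and in footprints (-0.24), and its translational efficiency was at -0.018 (adjusted p = 0.779, limma). Mcl1, an antiapoptotic protein that TPT1 is known to bind, rose in footprints (0.39) and translational efficiency (0.44, adjusted p = 0.00134, limma). Fbl, the methyltransferase fibrillarin, rose slightly in input (0.081, adjusted p = 0.0205, limma).

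Genes whose profile over the 8 libraries, centred within each kind of library, was among the most like the mean of the 8 genes were Golga3 (Pearson r = 0.993), Psma4 (0.989), Sf3b2 (0.979) and Gspt1 (0.979), out of 1963 genes with at least 500 normalized reads in both kinds. These correlations over 8 libraries in 4 groups are a description, and the points share library and depth. The mean weighs the 8 genes equally, so it includes Eef1g, whose change of 1.17 in footprints rests on few reads, and Tpt1. Psma4, a proteasome subunit, had log2 fold changes of 0.046 in input and 0.31 in footprints. Gspt1, the termination factor eRF3a, had 0.044 and 0.14. Both genes were picked for their likeness over these same libraries, so their changes between genotypes are not separate evidence.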

How the data were processed

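The deposited table lists genes in rows and gives normalized read counts for 8 libraries, per the file headers, and these are treated as a signal. Per the submitters' processing notes, Bowtie (no version) and mm10 were used. For the counter, annotation, read length filter and strand setting, nothing is given in the sources used here. From the values, 100% of the entries in every column were whole multiples of 1 read within 0.001, so reads were recovered, and every listed gene has at least 1 read in every library. All sample columns were mapped (0 left over), and 16 symbols turned into dates were restored from gene IDs. A log2 change in translational efficiency, its p-value and an adjusted p-value stand beside them in the deposited table, and the test behind them is not named. For Eef1a1, Eef1d and Pabpc1 the deposited adjusted p equals, after rounding, the lowest among the alternatives described below. For these genes the deposited values are therefore not a separate comparison.

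Genes whose values averaged at least 1 were fitted with limma-trend (limma 3.58.1, R 4.3.3) as log2(value + 1), with input and footprints fitted alone and translational efficiency as an interaction over all libraries. Tests were two-sided, with Benjamini-Hochberg adjustment over all genes tested. edgeR 4.0.16 and DESeq2 1.42.0 on recovered reads, other pseudocounts, filters, scalings, a replicate block and leaving out each library were alternatives. The 8 genes and the gene lists were chosen with earlier results of these data known. All 8 genes are named, as are up to 4 genes per list, those with the largest called changes over the 3 comparisons, and the 5 genes most like the mean of the 8, of which 1 is not reported here. The group with at least 3000 footprint reads was chosen after the values were seen. With 2 against 2 libraries an exact permutation test cannot go below p = 0.333, so none is given. Counting intervals cover counting error only.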

Additional observations from a re-analysis of the deposited data

Results flagged for a closer look

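Npm1 was called lower in input RNA and higher in footprints of KO cells. The interaction term, which tests the difference between the kinds of library, gave a log2 value of 0.29 ± 0.031 (SE, adjusted p = 0.00046, limma). Both KO libraries were lower in input and both higher in footprints, against 33.0% and 27.0% of all genes, each taken alone. The footprint call was lost with DESeq2 (adjusted p = 0.0765) and without limma's trend of variance (adjusted p = 0.557). Without that trend the input and interaction calls of Npm1 were lost as well. No group held enough libraries to look for single libraries that stand apart.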

How the results depend on the processing

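Under the alternatives run, each of the 8 genes that passed kept its direction in each comparison. The sign turned only for Tpt1 in footprints and for Tpt1 and Eef1b2 in translational efficiency, which had not passed. Pabpc1 input, which had not passed either, kept its sign. Tpt1 footprints ranged from -0.52 without KO footprint replicate 1 to 0.17 without KO footprint replicate 2, and its translational efficiency from -0.58 (adjusted p = 0.00289, limma, now called lower) to 0.12. Translational efficiency of Eef1b2 turned to -0.00070 under total read scaling, -0.00062 without KO input replicate 1 and -0.017 without KO footprint replicate 2, and was 0.061 without KO footprint replicate 1. Without the variance trend, the counts of the 8 genes that passed fell from 7 to 0 in input (0 higher, 0 lower), from 7 to 0 in footprints and from 6 to 1 in translational efficiency, and counts over all genes were 1276, 0 and 133. With all libraries fitted together, 4 of the 8 passed in input (3 higher), and 829 genes in input and 2311 in footprints passed overall. DESeq2 called 1721 genes in input and 460 in footprints. Leaving out each library in turn gave 6 to 7 of the 8 genes in input, footprints and translational efficiency, with 5 to 6 higher in input, 6 to 7 higher in footprints, 6 higher in translational efficiency and 0 to 1 lower there. Over all genes these fits gave 2856 to 3442 calls in input, 788 to 1391 in footprints and 419 to 1719 in translational efficiency. Deviations of same-numbered libraries from their group means correlated between -0.009 and 0.0066 over 8869 genes. Replicates differed by little more than counting error, which libraries do not share, so these values cannot show whether same-numbered libraries were paired. A replicate block left 7, 7 and 6 of the 8 genes called and gave 3877, 1548 and 938 calls over all genes. The cause of these differences was not tested. Under the scalings tried, the median log2 fold change of all genes lay between -0.026 and 0.0052. Depth limits Tpt1 and Eef1g footprints, at 10 to 52 reads per library.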
